A study of Nicotiana benthamiana with 6 samples.

Results

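The unigenes described here encode xyloglucan-modifying and wall-loosening enzymes of *Nicotiana benthamiana* leaves. They were chosen by a rule on annotation, which was set with earlier results of these data known. The best NR protein match had to come from *Nicotiana* or *Solanum*. The UniProt name had to be that of a xyloglucan endotransglucosylase/hydrolase (XTH), an expansin, an endoglucanase, an alpha-xylosidase or a mannan endo-beta-mannosidase (mannanase). Of the 167935 unigenes (assembled transcript sequences), 135 met this rule, namely 42 XTHs, 41 expansins, 34 endoglucanases, 5 alpha-xylosidases and 13 mannanases. The expansins comprised 30 alpha-expansins, 3 beta-expansins and 8 expansin-like unigenes.

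RNA was sequenced from leaves of wild type plants infiltrated with *Agrobacterium tumefaciens* LBA4404 that carried either pCAMBIA2200::*MaWRKY45*, a banana WRKY transcription factor gene under the CaMV35S promoter (overexpression, 3 libraries), or the empty pCAMBIA2200 (mock, 3 libraries). Plants were 5 weeks old, bacteria were infiltrated at an OD600 of 1.0 and leaves were sampled 3 days later. Each library pooled RNA from 3 plants, and both groups carry the bacterium and the infiltration, so that neither group is an untreated leaf. The p-values below measure the spread between these pooled libraries, and in a whole leaf a smaller number of cells of one type cannot be told apart from less RNA per cell.

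The primary wall of a growing leaf cell is a network of cellulose microfibrils tied together by xyloglucan, a glucan with xylose side chains, and by smaller amounts of mannan. XTHs cut xyloglucan chains and join the cut end to another chain or to water. Alpha-expansins loosen the network without hydrolysis and work best in an acidified wall, endoglucanases cleave beta-glucan chains, alpha-xylosidase removes xylose from xyloglucan oligosaccharides, and mannanases cut mannan chains.

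The total count per library was between 12031310 and 14285138, and the 135 unigenes took 0.121 to 0.153% of it in mock and 0.179 to 0.210% in overexpression. The longest unigene matched to a banana WRKY protein (2535 bases) held 1617, 781 and 1455 counts in mock and 3133, 4527 and 3615 in overexpression. Its log2 fold change was 1.46 ± 0.29 (SE, adjusted p = 0.0181). Its nucleotide match was a cloning vector, and the WRKY and the vector part of this unigene cannot be told apart. The other unigenes with a banana WRKY match (303 and 434 bases) held at most 8 counts in any library and were not tested. Leaf mesophyll markers (Rubisco small subunit and chlorophyll a-b binding proteins, 34 unigenes, each with counts) summed to 9101 to 28975 TMM CPM (counts scaled to library size by edgeR's TMM method) in mock, highest in mock replicate 2, and to 5838 to 10297 in overexpression. Of the 23 tested, 1 was called higher and 5 lower, against 1.92% and 2.67% of all tested unigenes. The median log2 fold change of the 23 was -1.43. edgeR called 0 of the tested markers of xylem (5), guard cells (3) and dividing cells (12), of which 1, 1 and 3 had an unadjusted p under 0.05. DESeq2 called 1 dividing cell marker higher and limma-voom 0. Their summed levels overlapped between the groups. Unigenes with a yeast match summed to 727 to 1046 TMM CPM in mock and 28.9 to 94.5 in overexpression. The part of these differences in the results below was not tested. When library sizes and TMM factors were taken from *Nicotiana* and *Solanum* matches alone, 10 of the 135 unigenes were called higher and 11 lower, the same counts as below.

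The first domain in the deposited Pfam column was used to check the names, and later entries were not read. All 42 XTHs carried a glycosyl hydrolase family 16 domain (35) or the XTH carboxy-terminal domain (7), and 40 of the 41 expansins carried an expansin domain. Of the 34 endoglucanases, 33 had a family 9 glycosyl hydrolase domain, and 12 of the 13 mannanases had the cellulase-type domain. A family 31 domain came first for 2 of the 5 alpha-xylosidases. Many unigenes were short: the median length was 1243 bases among the 63 unigenes that passed the filter on low counts and 377 bases among the 72 that did not. The 135 unigenes named 67 UniProt proteins, and 106 of them shared a protein with another member. Copies and fragments of one gene may therefore have split reads between them, and the level of any single unigene with such a partner is uncertain.

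Among the 63 tested unigenes, 10 were called higher and 11 lower in overexpression (edgeR, an at least 2-fold change with an adjusted p under 0.05). That is 15.9% and 17.5% of them, against 1.92% called higher and 2.67% called lower among all 37201 tested unigenes. The median log2 fold change was -0.08 for these unigenes and -0.01 for all tested. The libraries of the groups did not overlap in 33 of the 63 (all 21 called ones included), against 22.9% of all tested unigenes. In this fit the directions fell by family: 8 of the 10 called higher were XTHs and the other 2 were expansin-like, while 8 of the 11 called lower were alpha- or beta-expansins. Other settings added calls against this split, among them alpha-expansins called higher and XTHs called lower. Mock replicate 2 was the highest mock library in 38 of the 63 unigenes (60.3%) and in 37.8% of all tested unigenes, and without it 16 were called higher. Over all tested unigenes the number called higher also went up without this library, from 714 to 1176.

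**Figure D1:**
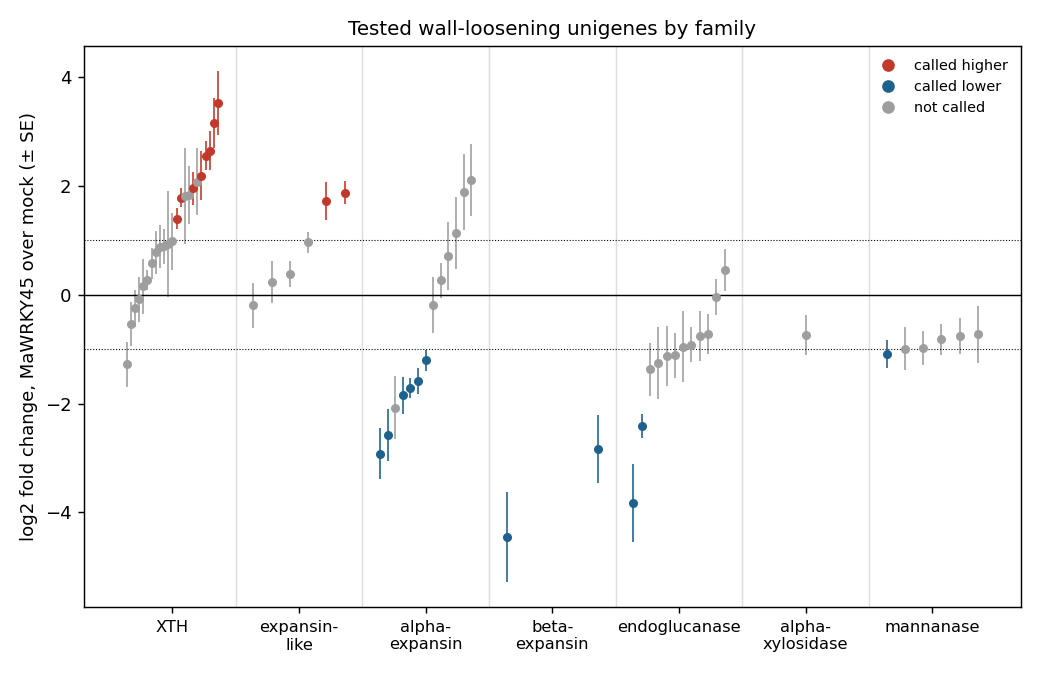
Log2 fold change (overexpression over mock, y axis) of the 63 tested unigenes, grouped by family and ordered by value within each, with bars of 1 standard error and dotted lines at a 2-fold change. The 8 called XTHs lie above the upper line, and the 8 called alpha- and beta-expansins lie below the lower line.

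Of 42 XTH unigenes, 23 were tested, and 8 of these (34.8%) rose in overexpression and 0 fell, while 15 were not called. Of all tested unigenes, 1.92% were called higher and 2.67% lower, and 48.9% had a positive value. At an unadjusted p under 0.05, 12 were positive and 1 negative. DESeq2 and limma-voom each called 8 higher, and they called 1 and 0 lower. Positive values were found for 19 of the 23, and the values ran from -1.28 to 3.53 with a median of 0.99 (log2 fold change). Grouped by the number of their Arabidopsis match, a split made after the values were seen, 6 of the 7 tested unigenes matched to XTH12 to XTH26 were called, with a median of 2.56. Of the 4 tested with a match to XTH1 to XTH11, 0 were called (median 0.52), and of the 9 matched to XTH27 to XTH33, 1 was (median 0.58).

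The unigene c2624_g2_i1, matched to Arabidopsis XTH16, held 1.46, 2.98 and 0.54 TMM CPM in mock and 15.8, 33.5 and 9.37 in overexpression. Every overexpression library was above every mock library, and the log2 fold change of 3.53 ± 0.58 (SE, adjusted p = 0.00815) was the largest among the 63. Without mock replicate 1 its adjusted p was 0.0644, and its log2 fold change was 4.23 without mock replicate 2 and 2.92 without overexpression replicate 2. The neighbouring unigene c2624_g1_i1 of the same assembly component, matched to XTH15, had 1.24, 2.31 and 0.90 TMM CPM in mock and 10.6, 21.9 and 7.89 in overexpression (log2 fold change 3.16 ± 0.46, adjusted p = 0.00534). These unigenes are 479 and 404 bases long, so they may be pieces of one transcript. The order of the 6 libraries was the same in both, with overexpression replicate 2 the highest and mock replicate 3 the lowest.

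The longer XTH15 match c88876_g1_i1 (1198 bases) held 9.13, 6.11 and 8.71 TMM CPM in mock and 21.1, 44.7 and 27.2 in overexpression. Its log2 fold change was 1.96 ± 0.30 (adjusted p = 0.00616), and again overexpression replicate 2 was the highest library. A separate set of 3 unigenes matched Arabidopsis XTH23. The most abundant, c76105_g1_i1, had 40.2, 38.1 and 45.6 TMM CPM in mock and 139, 159 and 129 in overexpression, a rise of 1.78 ± 0.17 (adjusted p = 0.00141) with little spread within either group. For c149835_g1_i1 the values were 11.9, 9.31 and 8.44 in mock and 46.9, 80.9 and 47.6 in overexpression (2.56 ± 0.26, adjusted p = 0.00146). For c91639_g2_i1 they were 6.35, 10.4 and 8.53 in mock and 33.6, 84.5 and 40.6 in overexpression (2.65 ± 0.35, adjusted p = 0.00371). All 3 remained called whichever of the 6 libraries was left out.

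XTH28 and a soybean XTH2 match completed the called XTHs. The XTH28 unigene c165050_g1_i1 held 19.6, 17.3 and 13.4 TMM CPM in mock and 44.0, 44.5 and 44.6 in overexpression (1.40 ± 0.19, adjusted p = 0.00394). The overexpression libraries were almost equal, and in FPKM, the length-scaled level, it was the third most abundant of the 135 in overexpression (135, against 47.3 in mock). The XTH2 match c90694_g2_i5 held 2.70, 6.48 and 1.26 TMM CPM in mock and 18.1, 13.2 and 16.9 in overexpression, with no overlap (2.19 ± 0.45, adjusted p = 0.0228). Its adjusted p was 0.114 without mock replicate 1 and 0.0727 without overexpression replicate 1, and its log2 fold change was 2.99 without mock replicate 2.

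**Figure D2:**
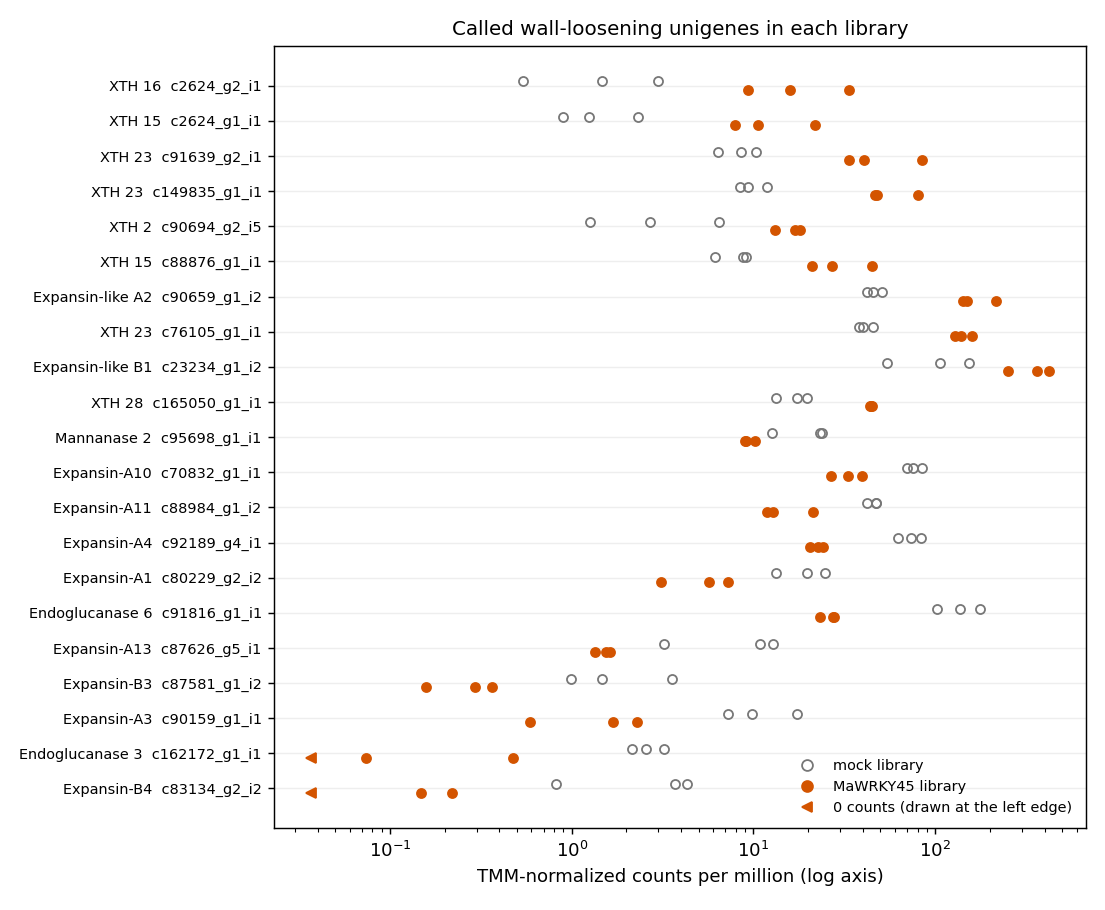
TMM CPM (log axis) in each of the 6 libraries for the 21 called unigenes, ordered by log2 fold change, with open grey circles for mock and filled circles for overexpression. The groups do not overlap in any of the 21 rows, and a triangle marks a library with 0 counts.

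The XTH with the highest mean level was not called. XTH30, c97560_g1_i1, held 140, 117 and 158 TMM CPM in mock and 170, 184 and 149 in overexpression, and the groups overlapped (0.28 ± 0.18, adjusted p = 0.485). It made up 20.6% of the summed FPKM of the XTHs in mock and 11.7% in overexpression. XTH8, c91400_g2_i1, held 40.2, 29.8 and 71.3 TMM CPM in mock and 84.1, 115 and 62.8 in overexpression (0.89 ± 0.32, adjusted p = 0.158), with mock replicate 3 inside the overexpression range. It was called when that library was left out. The XTH9 match c91639_g1_i3 had 10.9, 9.30 and 53.4 TMM CPM in overexpression against 5.55, 7.97 and 3.77 in mock (2.08 ± 0.62, adjusted p = 0.0861), a difference that came largely from overexpression replicate 3.

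XTH31 and XTH32 belong to the clade that in Arabidopsis holds xyloglucan hydrolases. Their matches lie in one assembly component and had opposite signs. The XTH32 match c93025_g2_i1 held 20.2, 48.8 and 17.1 TMM CPM in mock and 18.1, 8.13 and 9.37 in overexpression, the lowest fold change of the XTHs (-1.28 ± 0.42, adjusted p = 0.121). The XTH31 match c93025_g1_i1 stood at 0.89 ± 0.39 (adjusted p = 0.252). Neither was called by edgeR, and DESeq2 called the XTH32 match lower (adjusted p = 0.0295). Without mock replicate 2, when calls of higher unigenes went from 714 to 1176 over all tested, 13 XTHs were called higher in place of 8. XTH31, both XTH33 matches and a pair of tobacco XTH matches were among those added.

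Of 33 alpha- and beta-expansin unigenes, 15 were tested, and 8 (53.3%) fell in overexpression and 0 rose. Of all tested unigenes, 2.67% were called lower and 1.92% higher. The beta-expansins, 2 of these 8, passed the count filter through their mock libraries alone, so only a fall could be called for them. Of the 7 that were not called, 5 had a positive value. At an unadjusted p under 0.05, 9 were negative and 2 positive. Among the 33, DESeq2 called 9 lower, namely these 8 and EXPA18, which was not among the 15 tested, and limma-voom called 5 lower. Both called 0 higher. The median log2 fold change of the 15 was -1.58, with a range from -4.45 to 2.11. The 3 most abundant alpha-expansins in mock leaves were all called. EXPA4 (c92189_g4_i1) held 62.6, 73.5 and 83.5 TMM CPM in mock and 24.2, 22.6 and 20.5 in overexpression (-1.71 ± 0.18, adjusted p = 0.00161). EXPA10 (c70832_g1_i1), whose Arabidopsis counterpart acts in leaf growth, held 70.2, 75.1 and 84.1 in mock and 39.5, 33.3 and 26.8 in overexpression (-1.20 ± 0.19, adjusted p = 0.00728). EXPA11 (c88984_g1_i2) held 47.2, 42.4 and 47.5 in mock and 21.2, 12.7 and 11.8 in overexpression (-1.58 ± 0.24, adjusted p = 0.00584). In each of them the highest overexpression library was well below the lowest mock library.

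Less abundant alpha-expansins showed larger falls. EXPA3 (c90159_g1_i1) held 17.4, 9.83 and 7.27 TMM CPM in mock and 2.30, 1.68 and 0.59 in overexpression (-2.92 ± 0.47, adjusted p = 0.00790). A fragment of 285 bases from the same component, c90159_g2_i1, stood at -2.07 ± 0.59 and was not called (adjusted p = 0.0742). The match to rice Expansin-A1, c80229_g2_i2, held 13.3, 19.7 and 24.8 in mock and 7.21, 5.71 and 3.10 in overexpression (-1.85 ± 0.33, adjusted p = 0.0127). These calls on EXPA3 and rice Expansin-A1 held without any 1 of the 6 libraries. EXPA13 (c87626_g5_i1) held 10.8, 12.9 and 3.23 in mock and 1.35, 1.54 and 1.62 in overexpression (-2.58 ± 0.47, adjusted p = 0.0135). Its adjusted p passed 0.05 without mock replicate 1 (0.0693), overexpression replicate 1 (0.0559) or overexpression replicate 2 (0.0503).

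The beta-expansins, the group that also holds the grass pollen allergens, were rare. The tested ones passed the count filter through their mock libraries alone, so a fall was the only change that could be called. EXPB4 (c83134_g2_i2) held 4.31, 0.82 and 3.68 TMM CPM in mock and 0, 0.22 and 0.15 in overexpression, the largest fall among the 63 tested unigenes (-4.45 ± 0.83, adjusted p = 0.0146). It did not pass the count filter without mock replicate 1, its adjusted p was 0.0505 without overexpression replicate 1, and its log2 fold change was -5.09 without overexpression replicate 2. EXPB3 (c87581_g1_i2) held 1.46, 3.57 and 0.99 in mock and 0.16, 0.37 and 0.30 in overexpression (-2.83 ± 0.62, adjusted p = 0.0282). That call was lost without mock replicate 1 (0.0731), mock replicate 2 (0.0622, log2 fold change -2.13), overexpression replicate 1 (0.103) or overexpression replicate 2 (0.0810).

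An alpha-expansin outside the test, singled out after its values were seen, was at 0 in one group. EXPA18 (c52157_g1_i1), which in Arabidopsis acts in root hairs, had 150, 10 and 54 counts in mock and 0 in each overexpression library, at least 74.3-fold lower when 3 counts in the overexpression group are taken as the floor. Mock replicate 2 was far below the other mock libraries. The unigene did not pass the filter, and DESeq2, which was run without that filter, called it (adjusted p = 0.000508). Beside it, the XTH8 match c73797_g1_i1 had 0 counts in mock and 7, 9 and 2 in overexpression (at least 5.76-fold higher). These floors cover counting error only.

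Some alpha-expansins had positive values that did not pass the test. The match to rice Expansin-A2, c80229_g1_i1, held 5.55, 32.9 and 9.43 TMM CPM in mock and 114, 70.6 and 22.4 in overexpression (2.11 ± 0.67, adjusted p = 0.106), with mock replicate 2 above overexpression replicate 3. It was called when either of these libraries was left out. It comes from the same assembly component as the Expansin-A1 match that was called lower. EXPA15 (c85268_g2_i1) held 0.88, 1.71 and 0.27 in mock and 6.97, 2.86 and 1.11 in overexpression (1.89 ± 0.70, adjusted p = 0.170), and was called without overexpression replicate 3.

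Expansin-like proteins share the expansin fold, and a loosening activity has not been assigned to them. Of 8 unigenes, 6 were tested, 2 (33.3%) were called higher and 0 lower by edgeR, DESeq2 and limma-voom alike (3 positive and 0 negative at an unadjusted p under 0.05), and the median log2 fold change was 0.67. With edgeR, 1.92% of all tested unigenes were called higher and 2.67% lower. The EXLB1 match c23234_g1_i2 held 154, 54.3 and 107 TMM CPM in mock and 363, 421 and 253 in overexpression (1.72 ± 0.35, adjusted p = 0.0207). It had the highest mean FPKM of the 135 unigenes in both groups, 111 in mock and 395 in overexpression. Its share of their summed FPKM was 9.06% in mock and 19.4% in overexpression. The adjusted p was 0.0640 without mock replicate 3, 0.0685 without overexpression replicate 1 and 0.0733 without overexpression replicate 2. EXLA2 (c90659_g1_i2) held 51.0, 42.1 and 45.3 TMM CPM in mock and 150, 142 and 216 in overexpression (1.88 ± 0.21, adjusted p = 0.00198), and was called without any 1 library. Another EXLB1 match, c92659_g1_i3, passed the adjusted p (0.0177) at a log2 fold change of 0.97, just under a 2-fold change.

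Of the 19 tested endoglucanases, alpha-xylosidase and mannanases, 3 were called lower (15.8%), and 18 had a negative value. Of all tested unigenes, 2.67% were called lower and 1.92% higher, and 48.9% had a positive value. Mock replicate 2 was the highest mock library in 15 of the 19, against 37.8% of all tested unigenes, and its part in these values was not tested beyond leaving it out. Of 12 tested endoglucanases (34 in all), 2 were called lower and 0 higher by each of edgeR, DESeq2 and limma-voom, with 5 negative and 0 positive at an unadjusted p under 0.05. In all, 11 had a negative value (median -1.03). Endoglucanase 6 (c91816_g1_i1) held 102, 176 and 138 TMM CPM in mock and 27.5, 23.2 and 27.6 in overexpression (-2.41 ± 0.23, adjusted p = 0.00121). This unigene supplied 45.5% of the summed FPKM of the endoglucanases in mock and 18.2% in overexpression. Endoglucanase 3 (c162172_g1_i1) held 2.56, 3.20 and 2.15 in mock and 0.48, 0 and 0.07 in overexpression (-3.83 ± 0.71, adjusted p = 0.0143, and 0.0648 without mock replicate 1). This unigene, too, passed the count filter through mock alone. The log2 fold change was -5.84 without overexpression replicate 1 and -3.23 without overexpression replicate 2. Endoglucanase 11 (c87605_g1_i1) had the second largest fall among the tested unigenes that were not called (-1.37 ± 0.49, adjusted p = 0.150).

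Endoglucanase 25 is KORRIGAN, a membrane-bound enzyme needed for cellulose synthesis in Arabidopsis. Its longest match, c99374_g1_i2, held 35.5, 100.2 and 45.5 TMM CPM in mock and 63.8, 56.5 and 55.4 in overexpression. Mock replicate 2 alone exceeded the overexpression libraries, and the fitted value of -0.05 ± 0.33 (adjusted p = 0.964) became 0.53 without it. The shorter match c99374_g2_i1 held 2.99, 10.7 and 3.59 in mock and 3.01, 3.30 and 3.91 in overexpression (-0.76 ± 0.46, adjusted p = 0.429), and 0.05 without mock replicate 2.

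Alpha-xylosidase 1 was represented by 1 tested unigene, c80497_g1_i1, at 46.7, 141 and 58.2 TMM CPM in mock and 57.7, 47.2 and 42.8 in overexpression (-0.74 ± 0.36, adjusted p = 0.310). Here too mock replicate 2 stood above the other libraries, and without it the log2 fold change was -0.10. The other 4 alpha-xylosidase unigenes held at most 4 counts in any library, among them the fragments c160046_g1_i1 and c25969_g2_i1. All 6 tested mannanases were below 0 (median -0.90), and 1 was called by edgeR and by DESeq2, and 0 by limma-voom. That unigene, a MAN2 match (c95698_g1_i1), held 12.7, 24.0 and 23.3 in mock and 10.1, 8.93 and 9.07 in overexpression (-1.09 ± 0.26, adjusted p = 0.0402). The call was lost without mock replicate 2 (0.0583), mock replicate 3 (0.117), overexpression replicate 1 (0.111), overexpression replicate 2 (0.152) or overexpression replicate 3 (0.0679). A second MAN2 match, c86414_g1_i1 (-0.82 ± 0.29, adjusted p = 0.144), and the MAN6 match c95951_g1_i5 (-0.97 ± 0.31, adjusted p = 0.107) were not called. Neither overlapped between the groups, which was also so for 22.9% of all tested unigenes.

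The deposited FPKM was summed over each family in each library, as a description of transcript level with no test. The XTHs summed to 396, 508 and 374 FPKM in mock and 908, 1190 and 871 in overexpression, a ratio of the means of 2.32. Expansin-like unigenes went from 322, 229 and 277 to 717, 808 and 665, a ratio of 2.64. Both families were higher in every overexpression library than in any mock library. Alpha-expansins summed to 301, 361 and 322 in mock and 299, 209 and 121 in overexpression, a ratio of 0.640 in which overexpression replicate 1 nearly reached mock replicate 1. Endoglucanases (83.3, 166 and 92.5 against 59.7, 56.7 and 59.4) had a ratio of 0.514, and mannanases (38.9, 59.2 and 51.8 against 27.7, 26.5 and 26.8) one of 0.540. The beta-expansin sum (5.60, 11.7 and 4.46 against 0.14, 0.57 and 4.28) rested on few counts. For alpha-xylosidase (19.1, 47.7 and 18.4 against 20.7, 20.8 and 15.3) the groups overlapped, and the ratio of 0.666 was 1.01 without mock replicate 2. Over the 135 unigenes the sum was 1167, 1383 and 1140 in mock and 2033, 2310 and 1763 in overexpression.

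**Figure D3:**
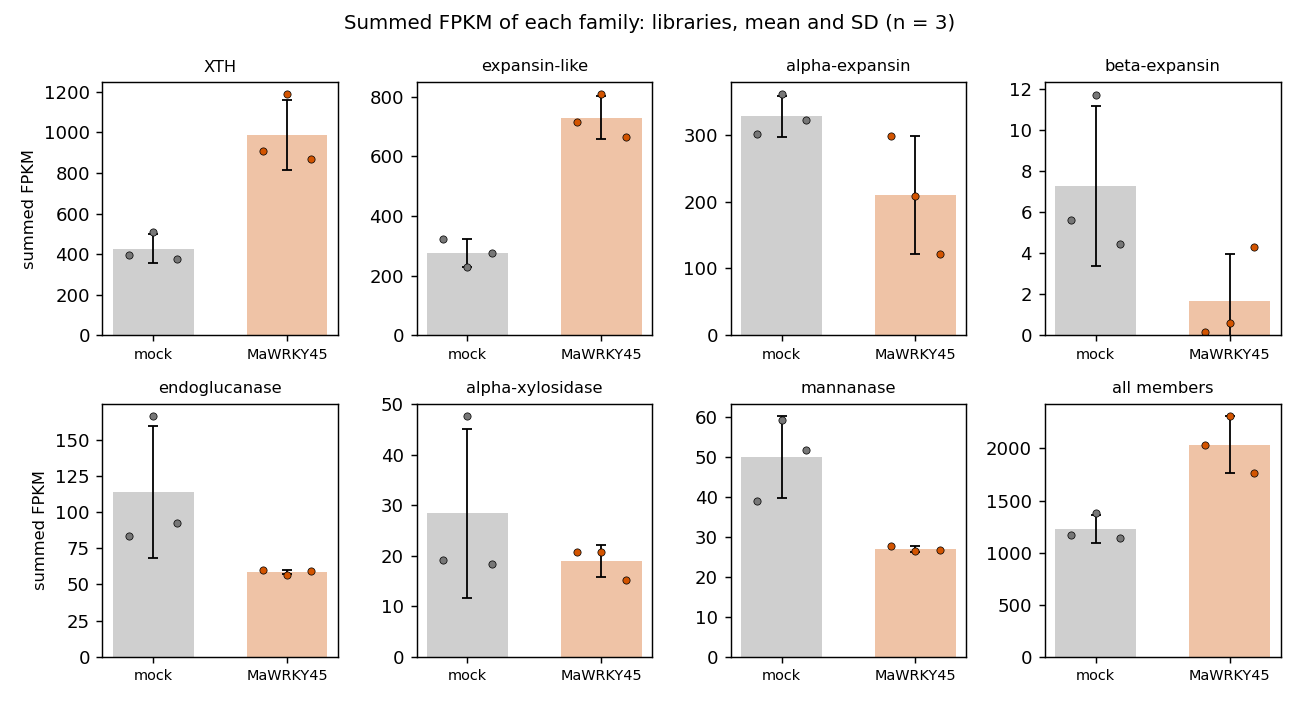
Summed deposited FPKM (y axis, starting at 0) of each family and of all 135 unigenes in the 3 mock and 3 overexpression libraries, with bars for the mean and error bars for the SD. The XTH and expansin-like sums are higher in every overexpression library than in any mock library, and alpha-expansins, endoglucanases and mannanases are lower.

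The order of abundance differed between the groups. In mock, EXLB1 and XTH30 were followed by EXPA4, EXPA10 and EXPA11, so that 3 of the 5 most abundant unigenes were alpha-expansins. In overexpression, EXLB1 was followed by EXLA2, XTH28, XTH30 and XTH8, with 0 alpha-expansins among the first 5. The first alpha-expansin there, at rank 8, was the rice Expansin-A2 match c80229_g1_i1, which was not called. Its mean of 66.8 FPKM (SD 43.2) equalled that of EXPA10 in mock (66.8). The 10 most abundant unigenes held 50.4% of the summed FPKM in mock and 60.9% in overexpression.

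Other genes that make or trim xyloglucan and mannan, or acidify the wall, were taken from a list of 114 unigenes, of which 55 were tested. Of these, 3 were called higher (5.45%) and 5 lower (9.09%), against 1.92% and 2.67% of all tested, and the median log2 fold change was -0.17. Mock replicate 2 was the highest mock library in 38 of the 55, against 37.8% of all tested unigenes. For xyloglucan synthesis, 0 of 15 were called higher and 2 lower by each of the 3 tools, and 0 were positive at an unadjusted p under 0.05. A match to XLT2 (c120750_g1_i1), which adds galactose to xyloglucan side chains, held 44.0, 45.1 and 62.7 TMM CPM in mock and 10.9, 13.3 and 14.5 in overexpression (-1.97 ± 0.21, adjusted p = 0.00176). Probable xyloglucan glycosyltransferase 12 (c99229_g2_i1), of the family that builds the glucan backbone, held 64.5, 63.0 and 96.3 in mock and 21.8, 27.7 and 20.8 in overexpression (-1.67 ± 0.22, adjusted p = 0.00355). Both were lower in every overexpression library, and both calls held without any 1 library. Other XLT2 matches, c96322_g1_i1 (-0.36 ± 0.17, adjusted p = 0.296) and c94483_g1_i1 (0.23 ± 0.22, adjusted p = 0.643), were not called.

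Mannan synthesis held the largest falls of the list. Glucomannan 4-beta-mannosyltransferase 2, which builds the mannan backbone, was matched by c93549_g1_i2, with 116, 182 and 179 TMM CPM in mock and 17.5, 10.03 and 19.8 in overexpression (-3.34 ± 0.29, adjusted p = 0.000941). A less abundant unigene of this name, c80667_g1_i1, had 3.65, 3.20 and 3.05 in mock and 0.24, 0.59 and 0.44 in overexpression (-2.93 ± 0.41, adjusted p = 0.00458). These were the 2 called of 7 tested (28.6%, against 2.67% of all tested), and 0 were called higher. The less abundant one passed the count filter through its mock libraries alone. With limma-voom 2 were also lower and 0 higher, and DESeq2 called 2 of the 16 listed lower and 1 higher. At an unadjusted p under 0.05, 3 were negative and 2 positive. The 2 tested with a positive value were not called. They were c79242_g1_i1 (mannosyltransferase 9, 1.28 ± 0.51, adjusted p = 0.203) and c22695_g1_i1 (MANNAN SYNTHESIS-RELATED 1, 1.73 ± 0.46, adjusted p = 0.0621). Of the 4 tested plasma membrane ATPases, the proton pumps that acidify the wall, edgeR and limma-voom called 0 and DESeq2 called 1 of the 16 listed lower, with 2 negative at an unadjusted p under 0.05 and a median of -0.32.

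Among 29 tested enzymes that can trim side chains, 3 beta-galactosidases were called higher (10.3%) and 1 alpha-L-fucosidase lower (3.45%). The shares of all tested unigenes were 1.92% and 2.67%. DESeq2 called 3 of the 53 listed higher and 1 lower, and limma-voom 2 and 1. At an unadjusted p under 0.05, 6 were positive and 3 negative. Beta-galactosidases also act on pectin and other galactans, so the list is not specific to xyloglucan. The most abundant called one, c95503_g1_i2, held 126, 193 and 107 TMM CPM in mock and 527, 450 and 286 in overexpression (1.57 ± 0.29, adjusted p = 0.0139). Its adjusted p was 0.0840 without mock replicate 1 and 0.0572 without overexpression replicate 1. BGAL1 (c99077_g1_i1) held 13.1, 20.6 and 5.48 in mock and 123, 72.0 and 19.1 in overexpression (2.44 ± 0.61, adjusted p = 0.0486). Its groups overlapped, and the call was lost without mock replicate 1 (0.169), mock replicate 3 (0.126), overexpression replicate 1 (0.157, log2 fold change 1.80) or overexpression replicate 2 (0.104).

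The tomato beta-galactosidase match c94101_g7_i5 lay at 1.04 ± 0.21 (adjusted p = 0.0213), close to the 2-fold limit. Its call was lost without mock replicate 1 (0.0818), overexpression replicate 1 (0.0613) or overexpression replicate 2 (0.107), and without mock replicate 2 the log2 fold change was 0.97. Alpha-L-fucosidase 2 (c88584_g1_i1), which removes fucose from xyloglucan in Arabidopsis, held 4.31, 6.33 and 3.95 TMM CPM in mock and 0.71, 0.73 and 1.84 in overexpression. The groups did not overlap (-2.14 ± 0.43, adjusted p = 0.0200), and the adjusted p was 0.0685 without mock replicate 1, 0.0756 without overexpression replicate 1 and 0.0821 without overexpression replicate 2. Without overexpression replicate 3 the log2 fold change was -2.73.

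**Figure D4:**
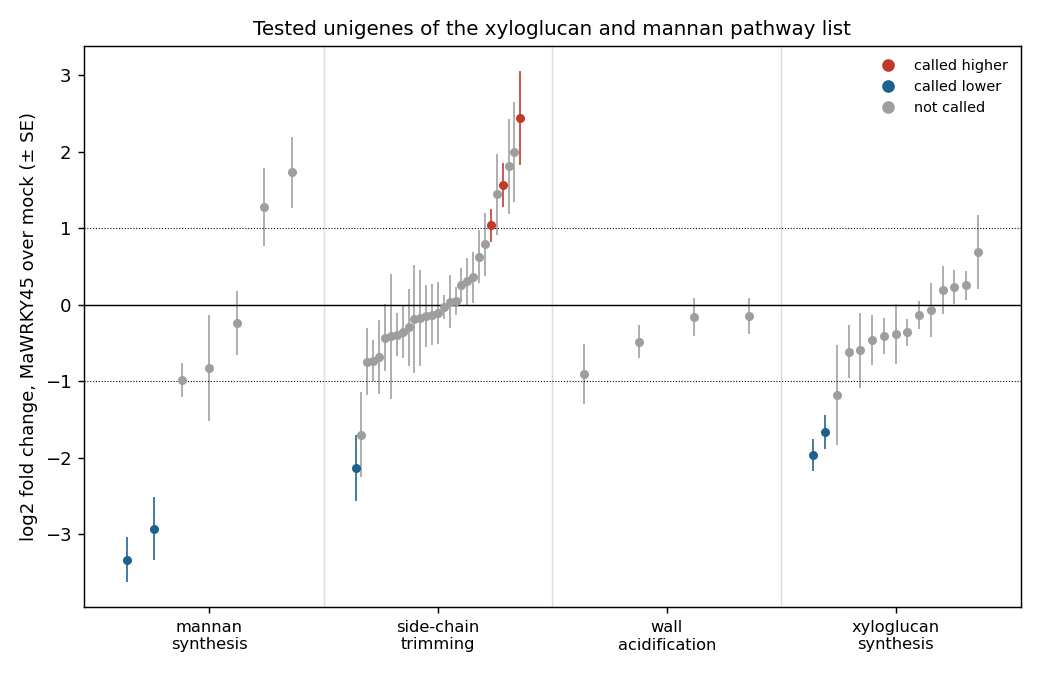
Log2 fold change (overexpression over mock, y axis, bars of 1 standard error) of the 55 tested unigenes of the pathway list in its 4 groups, with dotted lines at a 2-fold change. The 5 called lower lie in mannan synthesis (2), xyloglucan synthesis (2) and side-chain trimming (1), and the 3 called higher all lie in side-chain trimming.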

How the data were processed

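RNA was sequenced by the authors from 6 libraries (TruSeq stranded mRNA), 3 mock and 3 overexpression. Per the paper's methods, the authors trimmed reads with Trimmomatic (reads under 36 bp removed), assembled with Trinity, collapsed redundant contigs (CD-HIT-EST), mapped with Bowtie2 and counted with RSEM. The deposited joint table holds raw counts per unigene, and the expected counts deposited for each library equal them in all 167935 unigenes. The authors also deposited FPKM from RSEM, which served here to compare levels between unigenes. The deposited TPM and the unigene lengths were made by the authors in the same step, and TPM was not used.

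Counts were tested with edgeR 4.0.16 under R 4.3.3 (quasi-likelihood F test after TMM scaling and filterByExpr), with BH adjustment over 37201 tested unigenes that held 98.4% of counts. A call needed an at least 2-fold change and an adjusted p under 0.05. The SE of a log2 fold change was back-calculated as its absolute value divided by the square root of the F statistic. It is not an SE that edgeR reports. Total counts ranged from 12031310 to 14285138. Within a unigene, levels are TMM CPM.

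Named unigenes are every called member, the 3 with the highest mean FPKM of each family, c2624_g2_i1 (named by the study), the 3 largest rises and falls among tested members not called, and every called unigene of the pathway list. Any other unigene given with values was chosen after they were seen. The members and lists were chosen with earlier results of these data known. Alternatives were DESeq2 1.42.0, limma-voom (limma 3.58.1), glmTreat, other scalings and filters, a replicate block, sums per UniProt protein, and leaving out each library. No genome or transcript sequence was used here.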

Additional observations from a re-analysis of the deposited data

How the results depend on the processing

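Of the 10 wall-loosening unigenes called higher, 10 were also called by DESeq2 and limma-voom, and of the 11 called lower, 11 and 7. With glmTreat against a 2-fold change, 6 were called higher and 3 lower. With no count filter 16 were called higher and 15 lower. Leaving out 1 library gave 8 to 16 higher and 8 to 13 lower. Calls over all tested unigenes moved as well, from 714 higher and 992 lower in the main fit. They were 121 and 261 with glmTreat, and 1615 and 2586 with no filter. Without 1 library they ranged from 229 to 1206 higher and from 440 to 1550 lower.

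The 8 XTHs called higher became 5 with glmTreat and 6 to 13 without 1 library. They name 5 UniProt proteins, and 5 XTH proteins were called higher when unigenes of 1 protein were summed, so the lower number is one of merging. The 8 alpha- and beta-expansins called lower became 5 with limma-voom, 2 with glmTreat and 5 to 9 without 1 library. Without overexpression replicate 3, the Expansin-A2 (log2 fold change 2.55), EXPA15 (2.34) and EXPA6 (1.65) matches were called higher. An XTH6 match was then called lower (-1.19, adjusted p = 0.0386). With no count filter, the Expansin-A2 and EXPA15 matches were called higher and the XTH32 match lower. In the pathway list, 0 were called higher and 3 lower with glmTreat, 7 and 8 with no filter, and 0 to 7 and 4 to 8 without 1 library. The causes were not tested.

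The endoglucanase 25 match c99374_g1_i2 turned positive with limma-voom (0.10), library size alone (0.080) and the replicate block (0.10), and ranged from -0.33 to 0.53 without 1 library. Without 1 library c99374_g2_i1 ranged from -1.09 to 0.046. Scaling by library size alone moved the median of all tested unigenes from -0.01 to 0.11, and 11 were called higher and 10 lower.

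A ratio of summed FPKM was set against the spread of both groups' sums, a definition chosen after a narrower one, the spread of the overexpression sums alone, had been tried. Without 1 library the ratio ranged from 0.453 to 0.667 for endoglucanases, 0.567 to 1.01 for alpha-xylosidase and 0.486 to 0.595 for mannanases, and with TMM CPM per kilobase it was 0.471 for endoglucanases and 0.495 for mannanases.

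Same-numbered libraries did not deviate together (correlations of -0.11, -0.13 and -0.09). With 3 libraries per group, centred within each group, these values cannot decide whether the number stands for a shared batch or day. With the replicate block, 10 were called higher and 10 lower. The 72 unigenes that did not pass the count filter held a median of 9.5 counts over the 6 libraries.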
